A study of Mus musculus with 10 samples.

Results

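This account concerns 40 genes of the glutathione, peroxidase and thioredoxin defences against reactive oxygen and reactive aldehydes, in subcutaneous (inguinal) white fat of old mice. The genes were a fixed list of symbols, chosen by enzyme family with earlier results of these data known. All 40 of them were found once each among the 31285 genes of the deposited expression table. They were measured by RNA sequencing in 2 genotypes at 20 months of age, on regular chow, with 5 libraries per genotype. The first is Ad-GHRKO, in which the receptor for growth hormone, Ghr, is deleted in adipose tissue according to the series title, while the sample labels read GHR Knockdown. The second is Flox, the genotype it is set against. The labels name neither the driver of the deletion nor the sex of the mice, and nothing in them ties a library to 1 animal. The p-values therefore cover the differences among these 10 libraries, which may be technical.

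Cells remove superoxide and peroxides in steps. Superoxide dismutases turn superoxide into hydrogen peroxide, and catalase, the glutathione peroxidases and the peroxiredoxins reduce the peroxide. Glutathione and thioredoxin supply the electrons and are themselves kept reduced with NADPH. Glutathione transferases attach glutathione to electrophiles, among them the aldehydes that form when membrane lipids are oxidised. Many of these genes are induced by the transcription factor NRF2, which binds antioxidant response elements together with a small MAF protein. Fat stores lipid, which can itself be oxidised.

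Values are in FPKM, fragments per kilobase of gene scaled to the library's total, so levels of different genes can be compared per length. Whole reads could be recovered from them, 14592982 to 19238483 per library, and the 40 genes had 57 to 44404 reads each in a library. Ghr, the targeted gene, was at 15.1, 20.1, 12.99, 16.7 and 17.9 FPKM in Ad-GHRKO libraries 1 to 5, against 72.9, 129.8, 89.7, 80.9 and 94.1 FPKM in Flox libraries 1 to 5. The value covers the whole gene and can include reads outside the deleted part. None of 9 adipocyte markers was at 0 in all libraries. Their summed level was 4645 to 11330 FPKM in Ad-GHRKO and 15240 to 31270 FPKM in Flox, without overlap. Of the 9, Cfd (adipsin) fell and 8 did not pass, 7 had negative log2 changes (median -0.27), and without Cfd the sums overlapped, at 3262 to 9271 FPKM in Ad-GHRKO and 6365 to 9933 FPKM in Flox. Reads on 20 skeletal muscle markers made up 18.0% of Ad-GHRKO 1, while their share was 7.15% in Flox 3, 10.2% in Flox 5 and at most 0.241% in each remaining library. Their part in the values of the 40 genes was not tested beyond a covariate fit and fits without these libraries, given below. Ad-GHRKO 1 was the lowest Ad-GHRKO library for 26 of the 40 genes, and Flox 3 or Flox 5 was the lowest Flox library for 17 and 13 of them.

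Of the 40 genes, 3 fell in Ad-GHRKO, none rose and 37 did not pass the test (limma, Benjamini-Hochberg adjusted p under 0.05 over all 12785 genes tested). The 3 were Gsta4, a glutathione transferase, Gpx3, the secreted glutathione peroxidase, and Sod1, the copper and zinc superoxide dismutase. They make 7.5% of the list, where 2.19% of all genes tested passed, 0.774% as higher and 1.42% as lower. Since the list was chosen with earlier results of these data known, these shares are no test of the list. The 280 genes that passed were 99 higher and 181 lower (64.6% lower), and with TPM rescaling, which divides by the library's summed FPKM, they were 141 higher and 93 lower (39.7% lower). The median log2 change was -0.05 over the 40 genes and 0.04 over all genes tested, and the sign of the first turned with TPM rescaling (0.07 for the 40 genes, 0.15 for all genes). Of the 40, 24 had negative and 16 had positive changes of any size, and 55.7% of all genes tested were positive. In bulk tissue, fewer cells of a type and less RNA per cell cannot be told apart.

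All libraries of the genotypes lay apart for 6 of the 40 genes (15%), where this held for 4.97% of all genes tested (1.62% higher and 3.35% lower). These were Gsta4, Gpx3, Sod1, Prdx3 and Txn2, lower in every Ad-GHRKO library, and Srxn1, higher in every one. At an unadjusted p of 0.05, 11 genes (27.5%) passed, 7 of them lower and 4 higher, where 16.4% of all genes tested did (8.49% lower and 7.86% higher). These shares too are no test of a list chosen with earlier results known. Without the 3 muscle-rich libraries, Gsta4, Gpx3 and Sod1 passed again and Gstm1 passed as higher. In that fit 777 of all 12785 genes tested passed (378 higher and 399 lower), against 280 with all libraries. This set of libraries was chosen after the muscle reads were seen. With the skeletal muscle marker score as a covariate, 6 of the 40 genes passed. Gsta4, Gpx3, Sod1, Mgst2 and Txn2 were lower in that fit and Gstm1 was higher. Of all 12785 genes tested, 843 passed in it (323 higher and 520 lower). The adipocyte markers given above, Cfd among them, were also lower in sum in Ad-GHRKO. With the adipocyte marker score as a covariate, Gsta4, Gpx3 and Sod1 passed as lower, with log2 changes of -0.9995, -1.37 and -0.65. Without the covariate these were -1.36, -1.30 and -0.86. Of the 40 genes, 6 passed in the covariate fit, with Gstm5 also lower, and Gstm1 and Prdx5 higher (log2 changes 1.14 and 0.83). In this fit 1570 of all 12785 genes tested passed (1123 higher and 447 lower), against 280 without the covariate. The score is the mean log2 level of the 9 markers, Cfd included. It therefore cannot separate adipocyte content from changes of single markers such as Cfd. The part of adipocyte content in these 3 changes was not tested beyond that covariate.

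**Figure D1:**
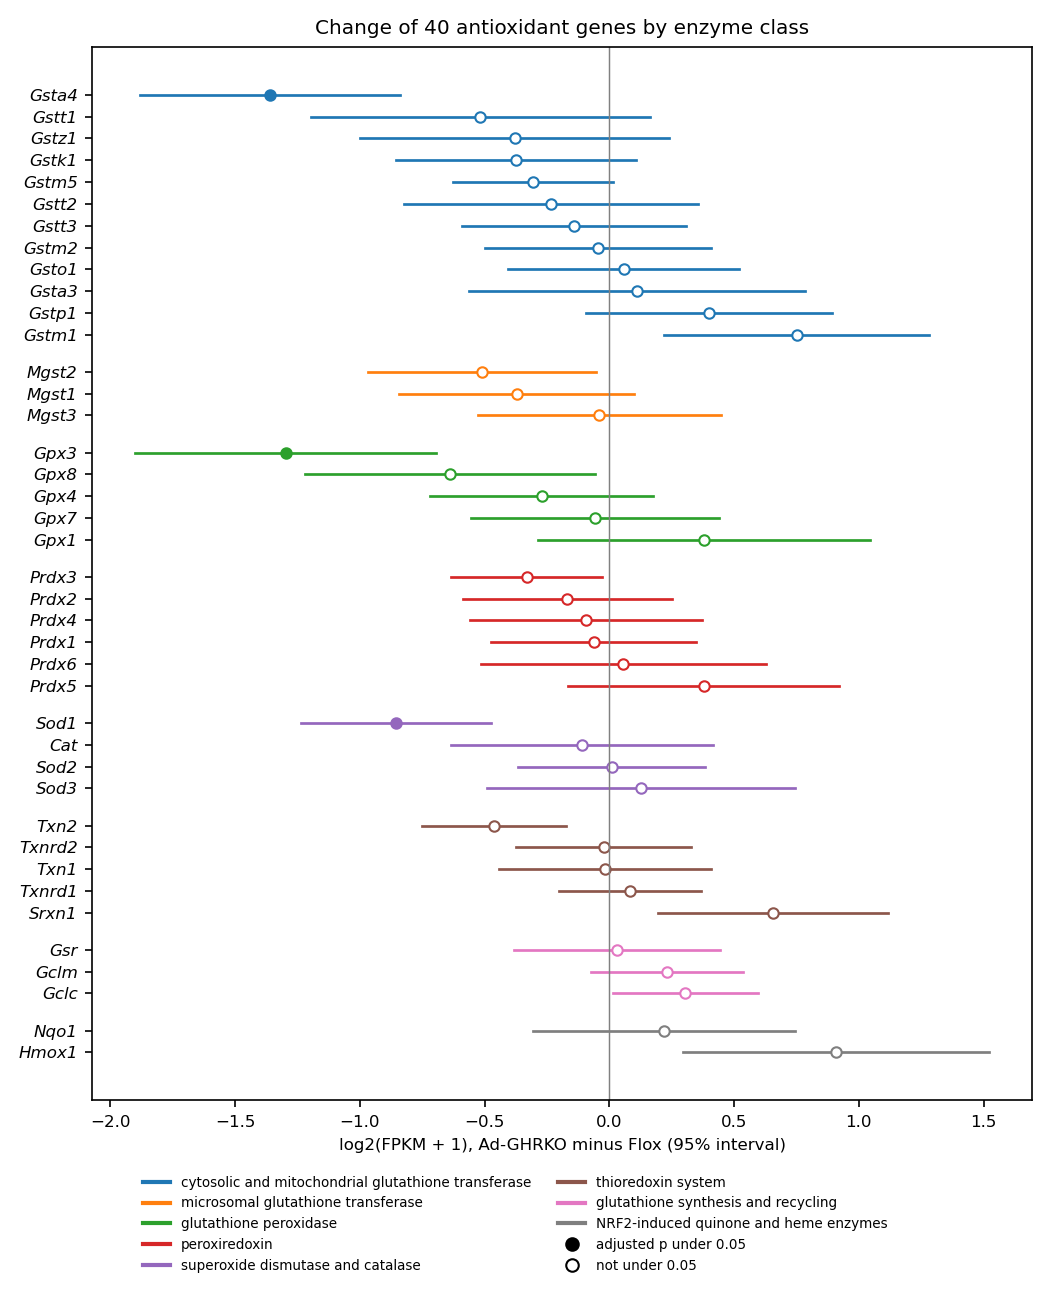
Log2 change of each of the 40 genes (Ad-GHRKO minus Flox, on the log2(FPKM + 1) scale), with its 95% interval from limma, grouped by enzyme class and ordered within it. Filled circles mark Gsta4, Gpx3 and Sod1, the 3 genes with an adjusted p under 0.05, and all 3 lie to the left of 0.

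The stretches of DNA around the starts of a few of these genes are shown because they hold, or lack, the letters that the factors upstream and downstream of the pathway are known to bind. Growth hormone signals through STAT5, whose sites read TTCNNNGAA. The core of the antioxidant response element was searched as TGACNNNGC, and the AP-1 site, bound by FOS and JUN proteins, as TGANTCA. Both strands of windows from 250 bases before to 50 bases after each start were searched, with sequences from RefSeq on GRCm38.p6, and 33 of the 40 genes had 42 such windows. Gsta4, Hmox1, Gclc, Gsr, Sod3, Gstt2 and Prdx6 had none in the table. The letters in capitals are the matches. Gpx3 and Sod1 fell, Txn2 was lower in every Ad-GHRKO library and Srxn1 was higher in every one. Prdx3, also lower in every Ad-GHRKO library, had a window with none of the 3 patterns, which is not shown.
Gpx3, chr11:54902604-54902903, plus strand: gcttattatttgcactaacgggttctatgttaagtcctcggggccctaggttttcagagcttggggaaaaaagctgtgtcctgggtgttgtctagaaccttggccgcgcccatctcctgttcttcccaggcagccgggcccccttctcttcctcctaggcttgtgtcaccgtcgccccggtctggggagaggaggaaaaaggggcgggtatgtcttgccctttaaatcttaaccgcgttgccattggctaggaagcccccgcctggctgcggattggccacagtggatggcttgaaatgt
Sod1, chr16:90220512-90220811, plus strand: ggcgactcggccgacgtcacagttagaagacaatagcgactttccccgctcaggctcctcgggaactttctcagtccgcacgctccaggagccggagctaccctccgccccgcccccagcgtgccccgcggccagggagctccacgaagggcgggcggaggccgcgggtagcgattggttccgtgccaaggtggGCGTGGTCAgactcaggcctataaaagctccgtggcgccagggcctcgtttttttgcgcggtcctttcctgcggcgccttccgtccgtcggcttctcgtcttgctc
Txn2, chr15:77928945-77929244, minus strand: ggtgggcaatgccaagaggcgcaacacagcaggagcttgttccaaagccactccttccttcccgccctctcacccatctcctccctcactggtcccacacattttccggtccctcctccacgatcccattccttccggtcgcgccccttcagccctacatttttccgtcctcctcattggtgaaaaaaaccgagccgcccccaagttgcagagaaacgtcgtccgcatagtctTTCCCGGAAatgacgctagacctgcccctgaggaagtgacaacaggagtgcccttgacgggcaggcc
Srxn1, chr2:152105274-152105573, plus strand: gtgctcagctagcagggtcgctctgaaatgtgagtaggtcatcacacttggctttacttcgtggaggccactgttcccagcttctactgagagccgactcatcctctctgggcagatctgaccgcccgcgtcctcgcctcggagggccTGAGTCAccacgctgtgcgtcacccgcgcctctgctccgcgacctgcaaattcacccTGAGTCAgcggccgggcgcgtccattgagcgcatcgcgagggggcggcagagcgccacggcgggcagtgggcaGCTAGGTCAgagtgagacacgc

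The window of Gpx3 held none of the 3 patterns. It lies inside the span given below for the gene, which begins at 54902453, so the bases before that position were not searched. The window of Sod1 held GCGTGGTCA, the antioxidant response element core on the other strand, starting 56 bases before the start of the gene. The window of Txn2 held the STAT5 pattern TTCCCGGAA, 17 bases before the start. That of Srxn1 held TGAGTCA at 102 and again at 45 bases before the start, and GCTAGGTCA at 28 bases after it. Of the 33 genes with a window, 8 had the antioxidant response element core (19% of their windows, against 12.4% of all 32851 windows), 6 the STAT5 pattern (16.7% against 8.3%) and 5 the AP-1 pattern (11.9% against 7.81%). Of the 8 matches to the antioxidant response element core, 1 overlapped an AP-1 match, in Prdx1. The STAT5 pattern was in windows of Txn2, Gpx8, Mgst1, Mgst2, Sod2 and Txnrd1, none of which passed the test. A match is a run of letters and was not tested as a binding site.

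The glutathione transferases outside membranes were the largest class, with 12 genes. Gsta4 fell, the other 11 did not pass, and the median log2 change was -0.19. Gsta4 encodes the alpha class enzyme that is specialised for hydroxynonenal, an aldehyde made from oxidised lipid (ENSMUSG00000032348, chromosome 9, 78182774 to 78209349, plus strand, GRCm38). It was at 9.84, 18.5, 13.01, 22.8 and 11.1 FPKM in Ad-GHRKO libraries 1 to 5, against 47.1, 47.9, 26.5, 36.1 and 39.0 FPKM in Flox libraries 1 to 5. The highest Ad-GHRKO library lay below the lowest Flox library, which was the muscle-rich Flox 3. The means were 15.1 ± 5.45 FPKM in Ad-GHRKO and 39.3 ± 8.77 FPKM in Flox (SD, n = 5 each), and the log2 change was -1.36 (SE 0.24, limma adjusted p = 0.0151). The call held without any 1 library (adjusted p at most 0.0495) and ended with no filter on low values (0.0511).

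Gsta3, another alpha class transferase, was at 14.9, 27.9, 22.1, 35.8 and 14.6 FPKM in Ad-GHRKO libraries 1 to 5, against 23.0, 25.4, 9.52, 24.4 and 23.4 FPKM in Flox libraries 1 to 5. The genotypes overlapped (log2 change 0.11, 95% interval -0.56 to 0.78). A ratio of genes within a library does not depend on the scaling of that library. The ratio of Gsta4 to Gsta3 was 0.59 to 0.763 in Ad-GHRKO and 1.48 to 2.79 in Flox, with no overlap. This pair, like the other ratios given here, was chosen after the values were seen and is not tested.

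Gstm1, a mu class transferase and the most abundant of the 12, was at 201.3, 462.6, 476.8, 330.1 and 385.5 FPKM in Ad-GHRKO libraries 1 to 5, against 257.3, 222.6, 191.1, 228.0 and 166.5 FPKM in Flox libraries 1 to 5. Ad-GHRKO 1, the library with the most muscle reads, lay within the Flox range and the other 4 lay above it. The log2 change was 0.75 (SE 0.24, limma adjusted p = 0.146) and did not pass, but without Ad-GHRKO 1 it was 0.95 with adjusted p = 0.013, and without the 3 muscle-rich libraries 0.80 with adjusted p = 0.038. In these fits 1185 and 777 of all 12785 genes passed, 778 and 378 of them as higher. Gstm1 also passed as higher with median ratio scaling and with quantile normalization. Of its neighbours on chromosome 3, Gstm4, which is not among the 40, was at 21.6 ± 5.96 FPKM in Ad-GHRKO and 15.2 ± 3.21 FPKM in Flox. Like Gstm1 it passed as higher without Ad-GHRKO 1 (log2 change 0.62, limma adjusted p = 0.0401). Without the 3 muscle-rich libraries Gstm4 did not pass (0.50, limma adjusted p = 0.109). Gstm2 was at 73.9 ± 20.7 FPKM in Ad-GHRKO and 74.2 ± 9.63 FPKM in Flox, and Gstm5 was at 12.1 ± 2.52 FPKM in Ad-GHRKO and 15.1 ± 1.88 FPKM in Flox (SD, n = 5 each). Gstm1 made up 49.0% ± 7.22 of the summed FPKM of the 12 transferases in Ad-GHRKO and 31.1% ± 3.21 in Flox (SD, n = 5 each), while the sum itself was 755.7 ± 196.1 FPKM in Ad-GHRKO and 689.8 ± 123.1 FPKM in Flox. The mu genes are similar to each other, and so are the theta genes, so that the authors' counting could move reads between them.

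Of the other transferases, the theta class genes Gstt1, Gstt2 and Gstt3, which lie together on chromosome 10, had log2 changes of -0.52, -0.23 and -0.14. Gstt1 was the most abundant of them, at 61.9 ± 25.5 FPKM in Ad-GHRKO and 87.4 ± 31.6 FPKM in Flox. Gstz1, the zeta enzyme of tyrosine breakdown, was at 120.1 ± 45.7 FPKM in Ad-GHRKO and 152.2 ± 45.1 FPKM in Flox. Gstk1, the kappa enzyme of mitochondria and peroxisomes, was at 33.7 ± 9.57 FPKM in Ad-GHRKO and 43.6 ± 10.2 FPKM in Flox. Gsto1, the omega enzyme, was at 28.3 ± 7.80 FPKM in Ad-GHRKO and 26.7 ± 5.51 FPKM in Flox. Gstp1, the pi class enzyme, was low in this fat, at 1.91 to 6.67 FPKM in Ad-GHRKO and 2.06 to 3.14 FPKM in Flox, and it has near-identical relatives. None of these passed (limma adjusted p 0.423 to 0.928), and each interval included 0.

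The microsomal transferases sit in membranes, and Mgst1 and Mgst3 were about as abundant as each other in Flox. Mgst3 was at 195.4, 238.1, 276.8, 246.2 and 162.1 FPKM in Ad-GHRKO libraries 1 to 5, against 354.1, 245.4, 203.8, 182.7 and 182.9 FPKM in Flox libraries 1 to 5. The genotypes overlapped (log2 change -0.04, 95% interval -0.53 to 0.45), and the sign turned with quantile normalization and with TPM rescaling. Mgst1 was at 117.3 to 225.5 FPKM in Ad-GHRKO and 196.4 to 298.2 FPKM in Flox (log2 change -0.37, limma adjusted p = 0.44). Mgst2, which also makes leukotriene C, was at 1.24 to 4.04 FPKM in Ad-GHRKO and 2.92 to 5.40 FPKM in Flox (log2 change -0.51, limma adjusted p = 0.252).

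Among the 5 glutathione peroxidases, Gpx3 fell and 4 did not pass. Gpx3 encodes the peroxidase that cells secrete into plasma and is a selenoprotein (ENSMUSG00000018339, chromosome 11, 54902453 to 54910377, plus strand). It was at 491.9, 237.6, 428.4, 468.2 and 427.2 FPKM in Ad-GHRKO libraries 1 to 5, against 1278, 1372, 965.1, 877.2 and 611.2 FPKM in Flox libraries 1 to 5. The Flox libraries differed among themselves by more than the Ad-GHRKO libraries, and the lowest of them, the muscle-rich Flox 5, was above every Ad-GHRKO library. The means were 410.7 ± 100.6 FPKM in Ad-GHRKO and 1021 ± 308.7 FPKM in Flox (SD, n = 5 each), and the log2 change was -1.30 (SE 0.28, limma adjusted p = 0.0358). It was the most abundant of the 40 genes in Flox and came after Gpx1 in Ad-GHRKO, where their ranges overlapped.

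The call of Gpx3 ended without any 1 of 8 libraries (Ad-GHRKO 2 to 5 and Flox 1 to 4, adjusted p up to 0.0955), while it held without Ad-GHRKO 1 or Flox 5. It also ended with no filter on low values (0.131) and with the macrophage marker score as a covariate (0.0653, log2 change -1.34). The 11 macrophage markers summed to 954 to 2477 FPKM in Ad-GHRKO and 654 to 1970 FPKM in Flox, 0 of 11 passed and all 11 had positive log2 changes. Their part in the result was not tested beyond that covariate.

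Gpx1, the abundant peroxidase of cytosol and mitochondria, was at 258.4, 486.3, 505.1, 535.2 and 534.9 FPKM in Ad-GHRKO libraries 1 to 5, against 565.5, 452.3, 236.2, 356.6 and 225.7 FPKM in Flox libraries 1 to 5. The 3 lowest values were those of the muscle-rich libraries, and the genotypes overlapped (log2 change 0.38, 95% interval -0.29 to 1.04). The ratio of Gpx3 to Gpx1 was 0.489 to 1.90 in Ad-GHRKO and 2.26 to 4.09 in Flox, with no overlap. The ratio of Gpx3 to Gpx4 did overlap, at 0.616 to 2.03 in Ad-GHRKO and 1.555 to 3.64 in Flox. Gpx3 made up 34.0% ± 9.94 of the summed FPKM of the 5 peroxidases in Ad-GHRKO and 55.9% ± 5.99 in Flox (SD, n = 5 each), and the sums were 1009 to 1398 FPKM in Ad-GHRKO and 1269 to 2361 FPKM in Flox. Gpx4, which reduces peroxides within membrane lipids, was at 315.0 ± 60.4 FPKM in Ad-GHRKO and 381.8 ± 80.3 FPKM in Flox (limma adjusted p = 0.566). Gpx7 and Gpx8 are peroxidases of the endoplasmic reticulum. Gpx7 was at 8.56 to 20.1 FPKM in Ad-GHRKO and 11.5 to 20.0 FPKM in Flox, and Gpx8 was at 7.56 to 29.6 FPKM in Ad-GHRKO and 24.9 to 27.9 FPKM in Flox (limma adjusted p = 0.258). Gpx8 had the tightest Flox values of the 40 genes, with a coefficient of variation of 4.17%, and 43.7% in Ad-GHRKO.

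**Figure D2:**
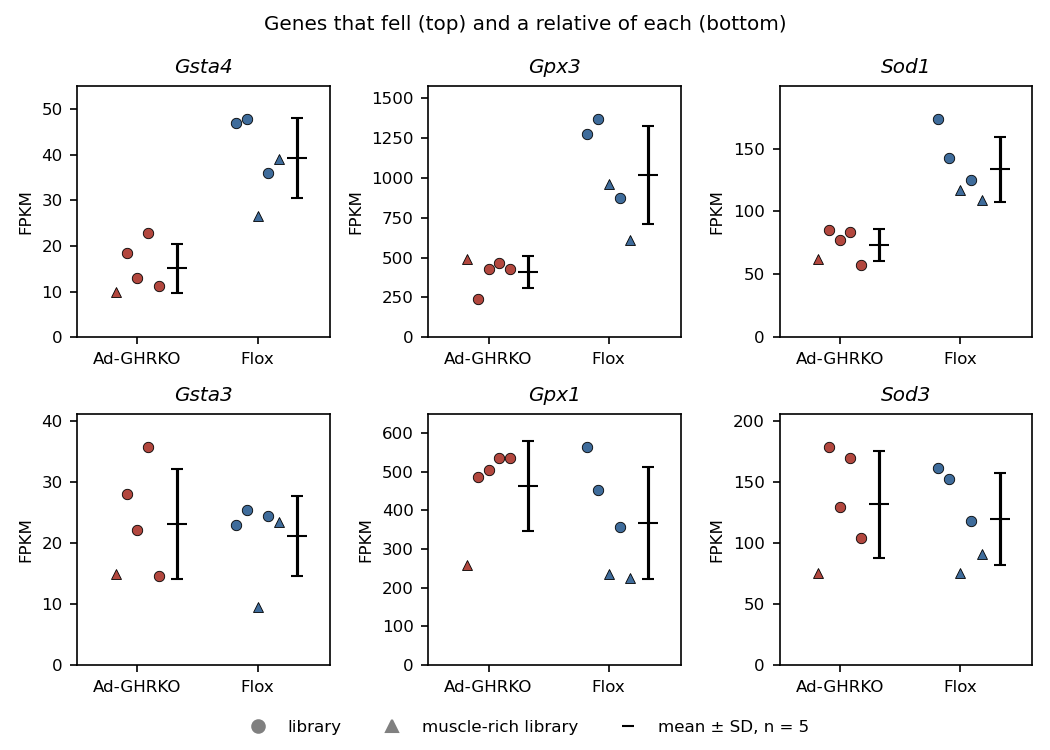
FPKM of Gsta4, Gpx3 and Sod1 (top) and of Gsta3, Gpx1 and Sod3, a relative of each (bottom), in every library, with Ad-GHRKO left of Flox, triangles for the 3 muscle-rich libraries and bars for mean ± SD (n = 5). The genotypes do not overlap in the top row and overlap in the bottom row.

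Of the superoxide dismutases and catalase, Sod1 fell and the other 3 did not pass. Sod1 encodes the dismutase of the cytosol (ENSMUSG00000022982, chromosome 16, 90220754 to 90226329, plus strand). It was at 61.8, 85.1, 77.4, 84.0 and 57.4 FPKM in Ad-GHRKO libraries 1 to 5, against 173.7, 142.5, 117.1, 124.6 and 108.9 FPKM in Flox libraries 1 to 5. Every Ad-GHRKO library was below every Flox library. The means were 73.1 ± 12.8 FPKM in Ad-GHRKO and 133.4 ± 25.7 FPKM in Flox (SD, n = 5 each), and the log2 change was -0.86 (SE 0.17, limma adjusted p = 0.0311). The call ended without any 1 of 7 libraries (Ad-GHRKO 3 to 5 and Flox 1 to 4, adjusted p up to 0.0843), with TPM rescaling (0.073) and with no filter (0.0673).

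Catalase, which breaks down hydrogen peroxide in peroxisomes, was the most abundant of these 4 genes. Cat was at 140.2, 318.8, 282.7, 372.9 and 249.8 FPKM in Ad-GHRKO libraries 1 to 5, against 303.4, 289.7, 265.7, 296.3 and 250.4 FPKM in Flox libraries 1 to 5. The genotypes overlapped, with the muscle-rich Ad-GHRKO 1 far below the rest (log2 change -0.11, 95% interval -0.64 to 0.41). The sign of Cat turned with quantile normalization, with TPM rescaling and without the muscle-rich libraries. Sod3, the dismutase of the extracellular space, was at 131.5 ± 43.5 FPKM in Ad-GHRKO and 119.7 ± 37.6 FPKM in Flox, and Sod2, the manganese enzyme of mitochondria, was at 18.7 ± 4.02 FPKM in Ad-GHRKO and 18.4 ± 3.24 FPKM in Flox (SD, n = 5 each). The 95% interval of the log2 change was -0.37 to 0.38 for Sod2 and -0.49 to 0.74 for Sod3. The ratio of Sod1 to Sod3 was 0.475 to 0.82 in Ad-GHRKO and 0.934 to 1.56 in Flox, with no overlap. The ratio of Sod1 to Cat did overlap, at 0.225 to 0.441 in Ad-GHRKO and 0.4205 to 0.5725 in Flox.

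None of the 6 peroxiredoxins passed. Prdx3, the peroxiredoxin of mitochondria, was at 75.7, 78.7, 57.9, 72.8 and 69.6 FPKM in Ad-GHRKO libraries 1 to 5, against 83.1, 103.8, 81.2, 79.8 and 99.6 FPKM in Flox libraries 1 to 5. Every Ad-GHRKO library was below every Flox library, by a narrow margin between Ad-GHRKO 2 and Flox 4 (log2 change -0.33, SE 0.14, limma adjusted p = 0.261). Prdx5, the most abundant of the class, was at 98.3, 225.8, 172.7, 202.9 and 133.1 FPKM in Ad-GHRKO libraries 1 to 5, against 135.6, 161.2, 89.4, 137.0 and 103.2 FPKM in Flox libraries 1 to 5. Its genotypes overlapped (log2 change 0.38, limma adjusted p = 0.499). Prdx5 passed as higher with the adipocyte score as a covariate (0.83, limma adjusted p = 0.0106) and with array weights (0.60, limma adjusted p = 0.0468). Of its exon bases, 19.1% are shared with Trmt112 on the opposite strand, and whether reads were counted by strand is not stated in the labels.

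Prdx1 and Prdx6 of the cytosol were at 79.4 ± 14.6 and 71.1 ± 20.2 FPKM in Ad-GHRKO, against 83.4 ± 17.8 and 68.9 ± 23.1 FPKM in Flox. Prdx2, which is also abundant in red cells, was at 31.0 ± 5.50 FPKM in Ad-GHRKO and 35.4 ± 8.58 FPKM in Flox (SD, n = 5 each). The 7 erythrocyte markers summed to 209 to 836 FPKM in Ad-GHRKO and 379 to 1220 FPKM in Flox, with 0 of the 5 tested past the threshold, and their part in the Prdx2 value was not tested. Prdx2 also shares 5.7% of its exon bases with Junb on the opposite strand. Prdx4, of the endoplasmic reticulum, was the lowest of the class, at 10.8 ± 2.55 FPKM in Ad-GHRKO and 11.6 ± 3.12 FPKM in Flox.

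In the thioredoxin system, no gene of 5 passed, but Txn2 and Srxn1 did not overlap between the genotypes and went in opposite directions. Txn2, the thioredoxin of mitochondria, was at 32.8, 34.4, 28.9, 36.1 and 24.7 FPKM in Ad-GHRKO libraries 1 to 5, against 45.1, 43.7, 37.7, 45.2 and 45.04 FPKM in Flox libraries 1 to 5. Its log2 change was -0.46 (SE 0.13, limma adjusted p = 0.103), and without Ad-GHRKO 1 it passed (-0.48, limma adjusted p = 0.0476). In that fit 407 of all genes passed as lower, against 181 with all libraries. Txn2 also passed with the skeletal muscle score as a covariate (-0.47, limma adjusted p = 0.0442). Without the 3 muscle-rich libraries it did not pass (-0.53, limma adjusted p = 0.0689). Srxn1, sulfiredoxin, which repairs overoxidised peroxiredoxins, was at 21.2, 19.8, 18.1, 18.7 and 41.4 FPKM in Ad-GHRKO libraries 1 to 5, against 13.6, 12.9, 12.4, 16.8 and 14.8 FPKM in Flox libraries 1 to 5. The smallest Ad-GHRKO value was above the largest Flox value, and Ad-GHRKO 5 stood far above the other 4 (log2 change 0.66, SE 0.21, limma adjusted p = 0.144, and 0.44 without Ad-GHRKO 5).

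Txn1, the cytosolic thioredoxin and the most abundant of the 5, was at 79.2, 105.4, 109.4, 96.4 and 125.3 FPKM in Ad-GHRKO libraries 1 to 5, against 111.6, 110.9, 75.2, 144.2 and 87.8 FPKM in Flox libraries 1 to 5. The ranges overlapped (log2 change -0.02, 95% interval -0.44 to 0.41), and the sign turned with quantile normalization and with TPM rescaling. The thioredoxin reductases Txnrd1 (cytosol) and Txnrd2 (mitochondria) are selenoproteins. Txnrd1 was at 12.5 ± 1.63 FPKM in Ad-GHRKO and 11.8 ± 1.57 FPKM in Flox, and Txnrd2 was at 4.69 ± 0.673 FPKM in Ad-GHRKO and 4.85 ± 1.19 FPKM in Flox (SD, n = 5 each). Their 95% intervals were -0.20 to 0.37 and -0.37 to 0.33 on the log2 scale.

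Glutathione is made by the glutamate cysteine ligase, of which Gclc is the catalytic and Gclm the modifier subunit, and is kept reduced by glutathione reductase, Gsr. Gsr was at 10.2, 19.2, 19.02, 19.1 and 20.7 FPKM in Ad-GHRKO libraries 1 to 5, against 18.3, 18.5, 16.8, 17.8 and 13.04 FPKM in Flox libraries 1 to 5. Ad-GHRKO 1 was the lowest of all 10 libraries and the other 4 Ad-GHRKO libraries the highest (log2 change 0.03, 95% interval -0.38 to 0.45). Gclc was at 7.28 to 10.3 FPKM in Ad-GHRKO and 5.49 to 8.22 FPKM in Flox (log2 change 0.30, limma adjusted p = 0.281), and Gclm was at 3.06 to 4.91 FPKM in Ad-GHRKO and 2.86 to 4.42 FPKM in Flox (limma adjusted p = 0.457).

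Hmox1, heme oxygenase, had the largest positive log2 change of the 40 genes. It was at 33.8, 43.8, 59.8, 54.0 and 72.8 FPKM in Ad-GHRKO libraries 1 to 5, against 39.6, 17.3, 23.0, 42.5 and 20.2 FPKM in Flox libraries 1 to 5. Ad-GHRKO 1 lay within the Flox range and the others above it (log2 change 0.91, SE 0.28, limma adjusted p = 0.132), and without Ad-GHRKO 1 Hmox1 passed as higher (1.06, adjusted p = 0.0418). In that fit 778 of all 12785 genes tested passed as higher, against 99 with all libraries. Without the 3 muscle-rich libraries Hmox1 did not pass (0.86, limma adjusted p = 0.138). With the macrophage marker score as a covariate its log2 change was 0.55 (adjusted p = 0.079). Nqo1, the quinone reductase, was at 3.22 to 10.5 FPKM in Ad-GHRKO and 3.21 to 5.67 FPKM in Flox (limma adjusted p = 0.712). Its highest value in each genotype was in a muscle-rich library, Ad-GHRKO 1 and Flox 3.

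**Figure D3:**
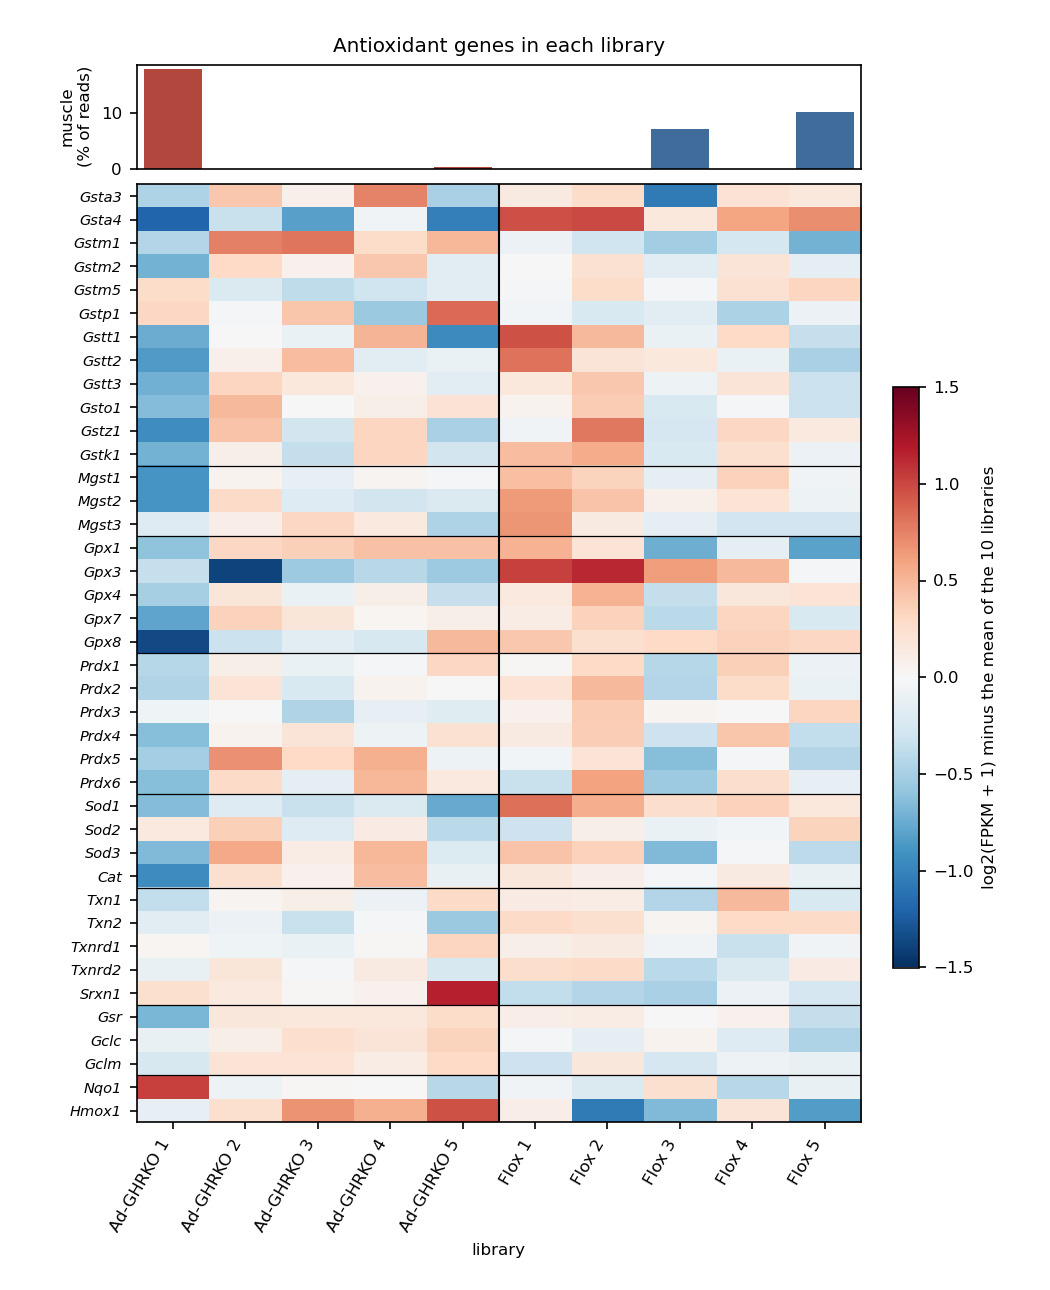
Log2(FPKM + 1) of the 40 genes in each library, minus the gene's mean over the 10 libraries, with Ad-GHRKO left of Flox and horizontal lines between enzyme classes. Bars above show the share of reads on 20 skeletal muscle markers, which is 18.0% in Ad-GHRKO 1, the lowest Ad-GHRKO library for 26 of the 40 genes.

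The other genes of these pathways were described from lists set by function. Of all 12785 genes tested, 0.774% passed as higher and 1.42% as lower. The lists were chosen with earlier results known, so the counts below are no test of them. Among 18 selenoproteins and genes of selenoprotein synthesis, 1 fell, none rose and 17 did not pass. The one that fell was Sephs2, selenophosphate synthetase, which makes the selenium donor that Gpx3 and the other selenoenzymes need (ENSMUSG00000049091, chromosome 7, 127271879 to 127274055, minus strand). It was at 10.1, 7.83, 6.71, 7.46 and 9.30 FPKM in Ad-GHRKO libraries 1 to 5, against 16.1, 18.3, 16.5, 20.8 and 19.01 FPKM in Flox libraries 1 to 5. All Ad-GHRKO libraries were far below all Flox libraries, the muscle-rich ones included. Its log2 change was -1.05 (SE 0.13, limma adjusted p = 0.0025), and the call held under each alternative run, among them leaving out any 1 library (adjusted p at most 0.0103). Without the muscle-rich libraries Selenoh also passed as lower (-0.67, adjusted p = 0.0361).

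Among 11 regulators of NRF2, 2 rose, none fell and 9 did not pass. Both were small MAF proteins, which pair with NRF2 and also with its competitor BACH1. Mafg, another small MAF protein, did not pass. Without the 3 muscle-rich libraries the log2 change of Mafg was -0.04 (limma adjusted p = 0.862). Maff was at 17.5, 10.5, 11.2, 13.7 and 30.0 FPKM in Ad-GHRKO libraries 1 to 5, against 6.56, 4.19, 3.29, 3.09 and 1.40 FPKM in Flox libraries 1 to 5 (log2 change 1.90, SE 0.33, limma adjusted p = 0.0142). Mafk was at 16.2, 21.2, 29.0, 30.8 and 37.6 FPKM in Ad-GHRKO libraries 1 to 5, against 14.6, 10.6, 10.5, 10.7 and 7.35 FPKM in Flox libraries 1 to 5 (log2 change 1.22, SE 0.23, limma adjusted p = 0.0213). For both, every Ad-GHRKO library was above every Flox library. The call of Maff held without any 1 library and ended without the 3 muscle-rich ones (0.0503) and with no filter on low values (0.0533), and that of Mafk ended without any 1 of 6 libraries (Ad-GHRKO 3 to 5 and Flox 2 to 4, up to 0.0666) and held without the muscle-rich ones.

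Of 18 further NRF2 targets, 1 rose and 17 did not pass. Blvra, biliverdin reductase, which acts on the product of heme oxygenase, was at 24.8 ± 9.501 FPKM in Ad-GHRKO and 9.28 ± 1.93 FPKM in Flox (SD, n = 5 each; log2 change 1.25, limma adjusted p = 0.0463). Its value in Ad-GHRKO 1 was 10.4 FPKM, within the Flox range. The call of Blvra held without Ad-GHRKO 1 and ended without any other 1 library (adjusted p up to 0.117), and it ended with the macrophage score as a covariate (0.0961). Among 16 genes of NADPH supply, 13 were tested, 1 fell and 12 did not pass. It was Tkt, transketolase of the pentose phosphate pathway, at 55.0 ± 18.9 FPKM in Ad-GHRKO and 157 ± 64.6 FPKM in Flox (log2 change -1.46, limma adjusted p = 0.0475). The call of Tkt ended without any 1 of 8 libraries (Ad-GHRKO 2 to 5 and Flox 2 to 5, adjusted p up to 0.118). It also ended with no filter, with TPM rescaling and with the adipocyte or the macrophage score as a covariate. Without the muscle-rich libraries it ended as well (log2 change -1.01, adjusted p = 0.126). Without those libraries, 1 gene of NADPH supply passed as higher, G6pdx (0.86, adjusted p = 0.0156), and 1 as lower, Pgls (-0.60, adjusted p = 0.0414), and of the NRF2 targets Aox1 (0.92, adjusted p = 0.0227) and Ephx1 (0.96, adjusted p = 0.0264) passed as higher beside Blvra.

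Among 14 genes of aldehyde clearance, 12 were tested, 1 rose and 1 fell. Aldh1a1, an aldehyde dehydrogenase that makes retinoic acid, was at 68.6, 120.5, 85.4, 116.1 and 118.7 FPKM in Ad-GHRKO libraries 1 to 5, against 42.6, 59.97, 37.3, 37.5 and 45.6 FPKM in Flox libraries 1 to 5. No Ad-GHRKO library overlapped the Flox range (log2 change 1.16, SE 0.20, limma adjusted p = 0.0137), and the call held under each alternative run. Aldh5a1, succinate semialdehyde dehydrogenase, was at 2.16 ± 0.225 FPKM in Ad-GHRKO and 3.82 ± 0.814 FPKM in Flox (SD, n = 5 each; log2 change -0.59, limma adjusted p = 0.0475), and its call ended without any 1 of 8 libraries (Ad-GHRKO 2 to 5 and Flox 2 to 5, up to 0.123) and without the muscle-rich libraries (0.0885). The call of Aldh5a1 also ended with no filter, with TPM rescaling and with the adipocyte or the macrophage score as a covariate.

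Of 19 thioredoxin fold and repair genes, 1 rose and 18 did not pass. Msrb3, a methionine sulfoxide reductase, was at 37.2 ± 1.78 FPKM in Ad-GHRKO and 24.1 ± 3.76 FPKM in Flox (log2 change 0.62, limma adjusted p = 0.0353). Of 11 tested producers of superoxide and peroxide, 1 fell and 10 did not pass, and those 10 had positive log2 changes. The one that fell was Maob, monoamine oxidase B, at 15.9 ± 2.38 FPKM in Ad-GHRKO and 25.6 ± 3.32 FPKM in Flox (SD, n = 5 each; log2 change -0.66, limma adjusted p = 0.0319). The call of Msrb3 ended without any 1 of 8 libraries (all but Ad-GHRKO 1 and Flox 3, adjusted p up to 0.0904) and with median ratio scaling (0.0939). That of Maob ended without any 1 of 7 libraries (all but Ad-GHRKO 1, Ad-GHRKO 4 and Flox 5, adjusted p up to 0.0998) and with TPM rescaling (0.079). Without the muscle-rich libraries, Maob passed again and Maoa, monoamine oxidase A, passed as higher (1.27, adjusted p = 0.0227).

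In the remaining lists no gene passed. With enough expression to be tested, these held 6 other glutathione transferases, 1 other peroxidase, 13 genes of glutathione synthesis and turnover and 8 of copper and manganese supply. The smallest p in each belonged to Gstm4 (log2 change 0.45, limma adjusted p = 0.321), Pxdn (0.36, adjusted p = 0.557), Ggt5, which splits extracellular glutathione (-0.55, adjusted p = 0.159), and Mt1, metallothionein (1.26, adjusted p = 0.0579). Mt1 was at 223.3 to 575.2 FPKM in Ad-GHRKO and 87.95 to 187.2 FPKM in Flox, without overlap, and passed without Ad-GHRKO 1 (1.36, adjusted p = 0.0287). In that fit 778 of all genes passed as higher, against 99 with all libraries. Without the 3 muscle-rich libraries Mt1 did not pass (1.01, limma adjusted p = 0.0908).

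**Figure D4:**
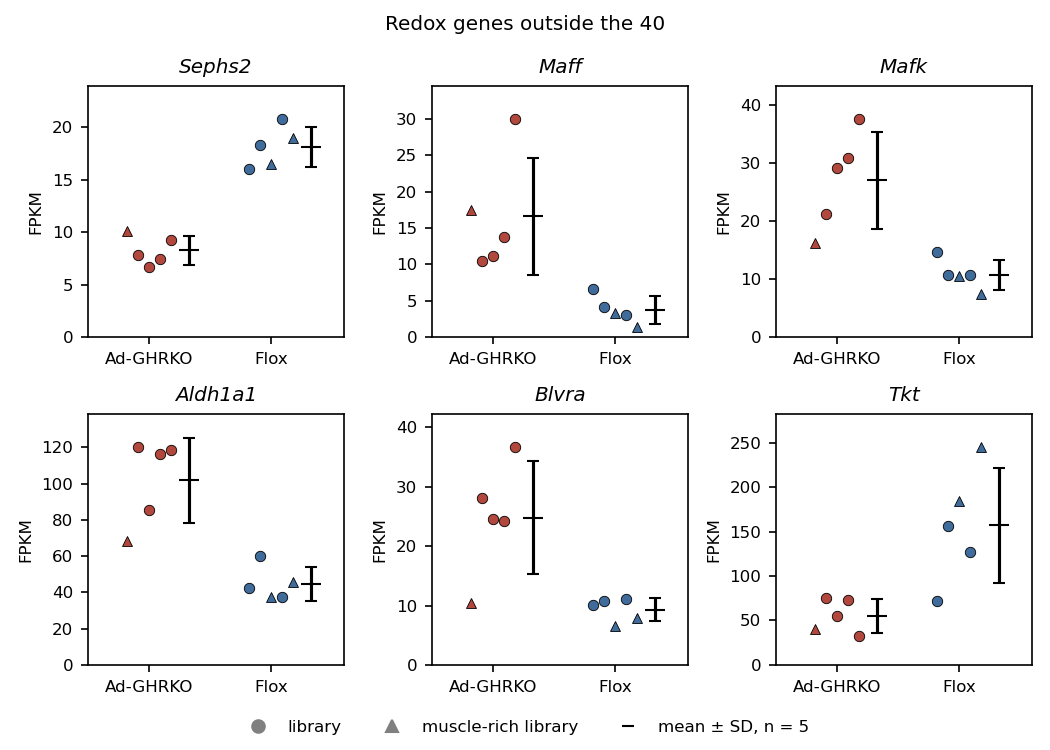
FPKM of Sephs2, Maff, Mafk, Aldh1a1, Blvra and Tkt in every library, with Ad-GHRKO left of Flox, triangles for the 3 muscle-rich libraries and bars for mean ± SD (n = 5). The genotypes do not overlap for Sephs2, Maff, Mafk and Aldh1a1, and they overlap for Blvra and Tkt.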

How the data were processed

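RNA was sequenced from 10 libraries of mouse inguinal white fat, 5 Ad-GHRKO and 5 Flox, after selection of polyadenylated RNA, per the labels' protocols. The authors deposited 1 table of FPKM values with a column per library, per the file headers. No aligner, counting tool or strand setting is named in the labels or the header. The submitters' processing notes name GRCm39, while 99.54% of the 31253 identifiers also in GENCODE M21 have its GRCm38 coordinates, so coordinates are given as GRCm38.

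A gene was tested if 5 or more libraries reached 1 FPKM, which left 12785 genes. The test was limma (version 3.58.1, R 4.3.3), two-sided, with a mean-variance trend and no block, on the log2 of FPKM plus 1. All 40 genes passed this filter and had at least 1 FPKM in every library. Fold changes on this scale understate changes of low genes. FPKM times the M21 exon length gave whole reads, within 0.01, for 99.43% to 99.49% of values in each library, which gave the depth. The fit was tested on simulated data first. Python 3.11.15, pandas 2.3.3 and matplotlib 3.10.9 were used for summaries.

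Values in every library are given for those of the 40 genes that passed the threshold, whose genotypes lie apart or that are the most abundant of their class. Those of Gsta3 and Gpx1 were added after their values were seen. From each other list, up to 4 genes past the threshold were named, or the 1 with the smallest p, by mean and SD or by library. G6pdx, Pgls, Aox1, Ephx1, Maoa and Selenoh were named after their values were seen. The 40 genes and the lists were chosen with earlier results of these data known. The labels do not say what the shared numbers mean, so the numbers were not taken as pairs. Deviations of same-numbered libraries had correlations of -0.49 to 0.39. That of Ad-GHRKO 1 with Flox 5, both muscle-rich, was 0.655, so these correlations cannot show whether pairs exist. No 2 libraries held identical values.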

Additional observations from a re-analysis of the deposited data

Results flagged for a closer look

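Of the 80 sets of 5 values (40 genes in 2 genotypes), 8 had 1 library whose gap to its nearest neighbour, divided by the range of the 5, was above Dixon's 95% critical value. For independent sets, chance gives about 1 in 20, but genes of 1 library are not independent, and 6 of the 8 were in Ad-GHRKO 1 or Flox 3. In Ad-GHRKO 1, the library with the most muscle reads (18.0%), 4 genes stood apart. Mgst1 was at 117.3 FPKM there, against 200.4 to 225.5 FPKM in the other Ad-GHRKO libraries. Gpx1 was at 258.4 FPKM, against 486.3 to 535.2 FPKM. Gsr was at 10.2 FPKM, against 19.02 to 20.7 FPKM. Nqo1 went the other way, at 10.5 FPKM, against 3.22 to 4.71 FPKM. In Flox 3, which had 7.15% muscle reads, Gsta3 was at 9.52 FPKM, against 23.0 to 25.4 FPKM in the other Flox libraries, and Txn2 was at 37.7 FPKM, against 43.7 to 45.2 FPKM. The part of muscle reads in these values was not tested.

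The other 2 were in libraries with few muscle reads. Gpx3 was at 237.6 FPKM in Ad-GHRKO 2, against 427.2 to 491.9 FPKM in the other Ad-GHRKO libraries, and without that library its log2 change was -1.11 (limma adjusted p = 0.0659). Srxn1 was at 41.4 FPKM in Ad-GHRKO 5, against 18.1 to 21.2 FPKM.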

How the results depend on the processing

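The number of changed genes, 280 of all tested, was 117 with no filter, 547 with median ratio scaling, 565 with quantile normalization, 1695 with array weights, 843, 1570 and 166 with the skeletal muscle, adipocyte and macrophage scores as covariates, and 777 without the 3 muscle-rich libraries (added after seeing the data). Leaving out 1 library gave 116 (without Ad-GHRKO 3) to 1185 (without Ad-GHRKO 1). Of the 40 genes, 3 passed, against 0 with no filter (12 at an unadjusted p of 0.05), 9 with array weights, 6 with the muscle or the adipocyte score, and 1 to 7 without 1 library. Limma voom on the recovered reads gave 274 genes, 3 of them among the 40. With the replicate block, 85 genes and 0 of the 40 passed (8 at an unadjusted p of 0.05, and adjusted p 0.06 for Gsta4, 0.131 for Gpx3 and 0.0976 for Sod1). The same-numbered libraries shared only a number, so this fit was not used. Gsta4, Gpx3 and Sod1 kept their direction under each alternative run. The lack of overlap fixes this for the fits that leave libraries out or add another constant to the FPKM. With the other filters, a robust variance prior or the replicate block, their log2 changes are those of the main fit by construction. TPM rescaling moved the median of all genes to 0.15, and relative to it the log2 changes were -1.44 for Gsta4, -1.33 for Gpx3 and -0.89 for Sod1.

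Changes near 0 turned sign. Mgst3 was at 0.0789 with quantile normalization, 0.0799 with TPM rescaling, 0.0711 with array weights and 0.15 with the adipocyte score, and between -0.12 and 0.12 without 1 library. Cat was at 0.0362, 0.0091, 0.18 and 0.32 under the same 4 settings, 0.0301 without the muscle-rich libraries, and between -0.24 and 0.11 without 1 library. Txn1 was at 0.0457 with quantile normalization, 0.10 with TPM rescaling and 0.16 with the adipocyte score, and between -0.13 and 0.10 without 1 library. Gsr was at -0.0024 with the muscle score and -0.12 with the macrophage score, and between -0.0528 and 0.21 without 1 library. The cause was not tested for any of these. The depth allowed every one of the 40 genes at least 57 reads in each library.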
